A study of Setaria viridis with 26 samples.

Results

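Photosystem I and photosystem II are the pigment-protein complexes of the thylakoid membrane that drive the light reactions of photosynthesis. Each has a reaction center core and a surrounding antenna of chlorophyll a/b binding proteins, named LHCA for photosystem I and LHCB for photosystem II. Most antenna proteins and many small core subunits are encoded in the nucleus, whereas the central reaction center proteins, such as D1 of photosystem II, are encoded in the plastid genome of land plants. The genes described here are those of the C4 grass *Setaria viridis* that the GO annotation assigns to photosystem I or photosystem II and that are nodes of a co-expression network. Of 48 annotated genes, 44 were among the 25298 genes of the network (91.7%). The 4 that were not are Sevir.1G319100, Sevir.2G226500, Sevir.5G302601, which has a chlorophyll a/b binding domain, and Sevir.7G035900.

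The series profiled mRNA of pooled, hand-dissected inflorescence primordia grown under short days. The *ful2* mutant was sampled at 9-10, 15 and 21 days after sowing (DAS) and the wild-type A10.1 at 8-9, 10-11 and 17 DAS, with 4 replicates for each genotype and age, and 2 DNA samples of the mutant were sequenced for mapping. The mutant carries the *brl1-ref* allele of *SvFul2*, a MADS-box transcription factor gene, in the A10.1 background. The network used wild-type primordia only, from which the authors had left out 1 replicate at 8-9 DAS and 1 at 17 DAS, together with wild-type primordia of an earlier study. No mutant sample entered it, so the values below describe how photosystem genes varied together in normal development and say nothing of the mutant. The tables used hold no level for a single sample, and the direction in which any of these genes changed over development was not analysed here. In such pools, more cells that express a gene and more mRNA per cell cannot be told apart.

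An edge of the network is a pair of genes with a listed weight, the topological overlap, which is high when the genes vary together and share the genes they vary with. The deposited list holds 43548751 edges, which is 13.6% of all gene pairs, and its lowest weight is 0.02. The median listed weight was 0.0412 and the highest was 0.393. Every gene of the deposited node list also has a module, a colour given by the authors to a group of co-expressed genes, of which the list has 26. Modules were cut from the same weights, so that a shared module and a listed edge are not independent of each other. No weight has a replicate error, and all values are given as a description without a test.

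The label of the gene set was first compared with the other evidence in the annotation. Of the 44 genes, 22 had a reciprocal best hit in Arabidopsis counted here as a photosystem protein, and they are called by the Arabidopsis name. They include Sevir.9G103800, whose hit is only PSAN-like. A further 3 had only a protein domain of a photosystem subunit, namely PsbW in Sevir.5G340900, PsbX in Sevir.9G412500 and PsbM in Sevir.7G206600. The remaining 19 had neither, and 11 of these had a different Arabidopsis hit, such as the alpha subunit of the transcription factor TFIIF for Sevir.9G281000 and an SR splicing protein for Sevir.9G412400. Among the 63 photosystem assignments, 53 came with no evidence entry, 8 with a domain and 2 with a reciprocal best hit. The GO label thus covers genes with and without a photosystem protein as their best match, and both kinds are described.

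The split between the complexes in the GO terms did not follow the Arabidopsis names. The photosystem I term alone was given to 17 genes, the photosystem II term alone to 14, and both terms to 13. Of the 6 LHCA genes, 4 had both terms, and *LHCA2* (Sevir.2G377600) and *LHCA5* (Sevir.1G337400) had only the photosystem II term. Of the 7 LHCB genes, 5 had both terms, and *LHCB5* (Sevir.8G081900) and *LHCB6* (Sevir.7G130100) had only the photosystem I term. The 3 photosystem I core genes and the 3 photosystem II core genes had the term of their own complex alone. Antenna genes are therefore grouped below by Arabidopsis name and not by term.

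The photosystem genes were concentrated in the red module. It held 21 of the 44 genes (47.7%), whereas 6.68% of all network genes (1689 of 25298) are red, a 7.15-fold difference in share. Yellow followed with 5 genes (11.4%), beside 7.91% of all network genes. Turquoise, blue and magenta held 3 each, greenyellow held 2, and black, pink, purple, salmon, cyan, lightcyan and lightyellow held 1 each. The other 13 modules, among them brown with 2411 genes and green with 1881 genes, held none. Of the genes with both GO terms, 9 of 13 were red (69.2%), beside 7 of 14 with the photosystem II term alone (50.0%) and 5 of 17 with the photosystem I term alone (29.4%).

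**Figure D1:**
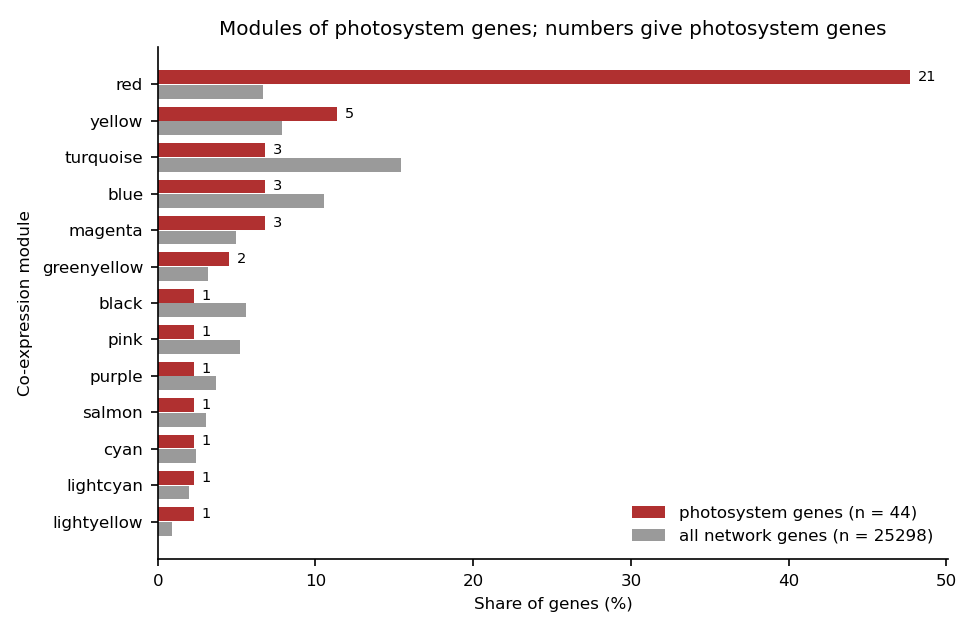
Share of the 44 photosystem genes (dark red bars, with the number of genes) and of all 25298 network genes (grey bars) in each module that holds a photosystem gene, in percent. Red holds 21 photosystem genes, 47.7% beside 6.68% of the network, and no other module holds more than 5.

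Red membership went with photosystem identity of the best match. Of the 22 genes with a photosystem hit in Arabidopsis, 16 were red (72.7%), and of the 25 with a hit or a domain, 18 were red (72.0%). Of the 19 genes with neither, 3 were red (15.8%), and of the 11 with a different Arabidopsis hit, none was. By role, red held 5 of 6 LHCA genes and 6 of 7 LHCB genes. It held 2 of 3 photosystem I core genes, 2 of 3 photosystem II core genes and 1 of 2 assembly genes. The photosystem I core gene outside red was Sevir.9G103800, which is only PSAN-like. *PSAN* itself (Sevir.7G290300), which is not in the set, was red. The photoprotection gene *PSBS* was in yellow. The 3 red genes with neither hit nor domain, Sevir.2G310200, Sevir.5G222600 and Sevir.7G197500, had no Arabidopsis hit at all, and of these Sevir.2G310200 and Sevir.5G222600 carried light-harvesting and chlorophyll-binding terms.

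The red photosystem genes ranked high in connectivity, the sum of weights to the other genes of the module. *LHCA4* (Sevir.6G164700), an antenna protein of photosystem I, ranked 7 of 1689 and had an edge to 93.1% of the other red genes. *PSAO* (Sevir.7G100300), a small photosystem I subunit that takes part in balancing light between the photosystems in Arabidopsis, ranked 18. *LHCB4* (Sevir.2G362400), a monomeric antenna protein that links the photosystem II core to its outer antenna, ranked 21. Next came the LHCA proteins *LHCA1* (Sevir.4G175200) at rank 23 and *LHCA2* at rank 32. *LHCB5*, another monomeric antenna gene, was at rank 33. Sevir.2G310200, which has chlorophyll-binding and light-harvesting terms but no Arabidopsis hit, was at rank 38. *LHCB6*, the third monomeric antenna gene, and *LHCA3* (Sevir.4G229200) stood at ranks 49 and 51.

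In all, 19 of the 21 red photosystem genes were in the top 25% of red, and their median connectivity was above that of 95.6% of red genes. For scale, the 119 red genes with the chloroplast thylakoid membrane term, among which 16 are photosystem genes, had 66 in the top 25% and a median of 79.9%. The trimeric antenna genes *LHCB2* (Sevir.9G175700), *LHCB1* (Sevir.3G146000) and *LHCB3* (Sevir.2G363700) were at ranks 93, 122 and 189, below the monomeric ones. The small photosystem II subunit genes *PSBX* (Sevir.2G441600) and *PSBW* (Sevir.3G189600) were at ranks 74 and 247. *PSAK* (Sevir.2G035800), a photosystem I core subunit next to the antenna, was at rank 399. The other copies recognised by domain, PsbW in Sevir.5G340900 and PsbX in Sevir.9G412500, were at ranks 55 and 150. Sevir.7G197500 and Sevir.5G222600 were just inside the top 25%, at ranks 406 and 416.

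Only 2 red photosystem genes were below the top 25%. *PSB29* (Sevir.2G362500), whose Arabidopsis counterpart THF1 acts in thylakoid formation, ranked 622. *LHCA5* ranked 1058, below the middle of the module. It had 612 edges, the fewest of the 44 genes, and reached 31.8% of red genes. In Arabidopsis, LHCA5 is a minor antenna protein that joins photosystem I to the chloroplast NDH complex. The gene for its partner in that role, *LHCA6* (Sevir.2G227200), was in another module, magenta, at rank 993 of 1260. Whether the role and the ranks are related was not tested.

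**Figure D2:**
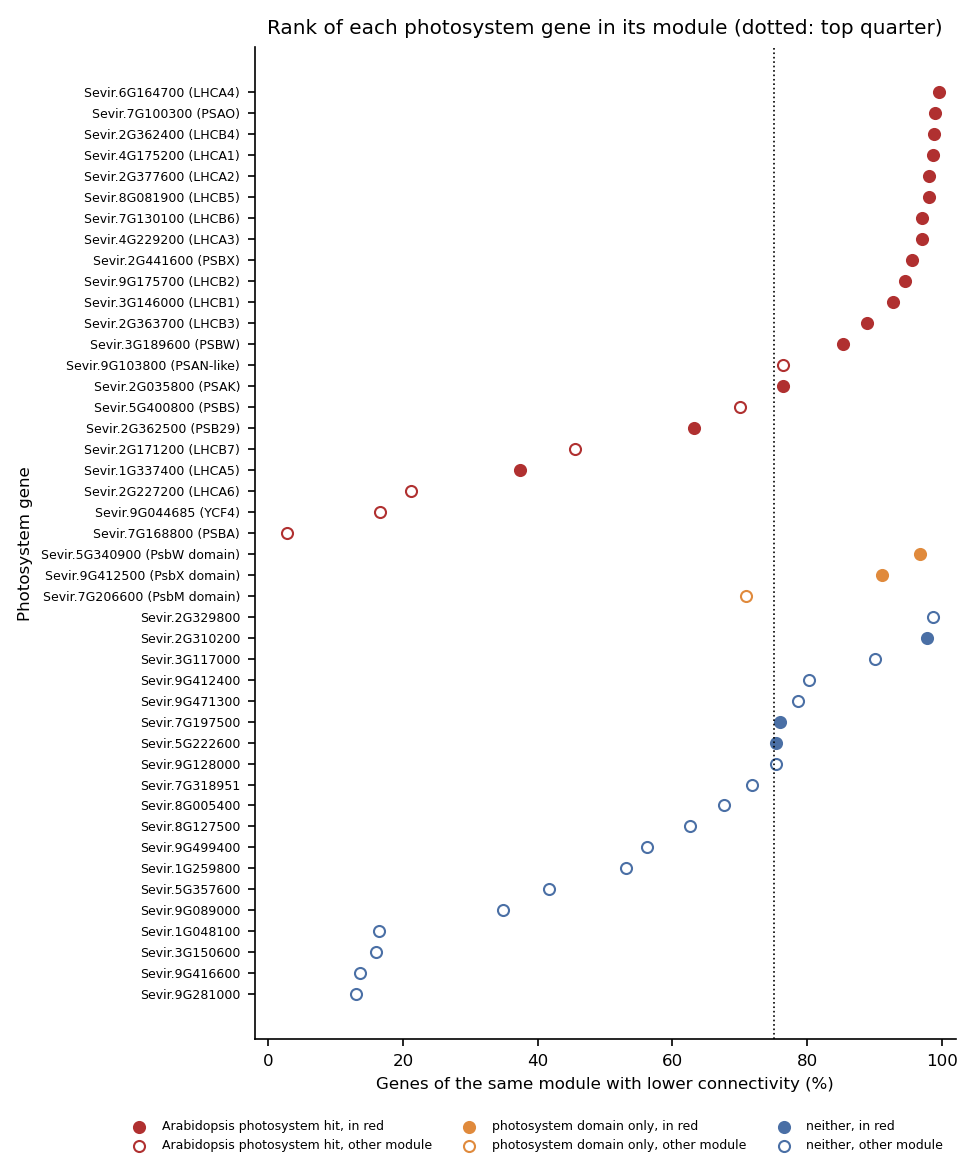
Position of each of the 44 photosystem genes in its own module, as the percent of genes of that module with lower connectivity. Filled points are in red, open points in other modules, and the dotted line marks the top 25%. The red photosystem genes sit at the right, 19 of 21 in the top 25%, with *LHCA5* at 37.4% and *PSB29* at 63.2%.

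Nearly every pair of red photosystem genes had an edge. Of 210 pairs, 206 were listed (98.1%), beside 40.0% of all pairs of red genes. These genes had many edges in general: they reached 74.1% of their pairs with red genes of any kind. Their median was 3413 edges, beside 1680 for a red gene. The weights of the 206 edges ran from 0.0204 to 0.166 with a median of 0.0747. That median was above 90.6% of all edges within red (median 0.0357). At a weight of at least 0.04, 176 pairs were left (83.8%), beside 16.7% of all red pairs. Among the top 10% of all weights, at least 0.106, there were 64 pairs (30.5%), beside 0.821% of all red pairs. The 4 pairs without an edge were *LHCA5* with *PSB29*, with Sevir.7G197500 and with *LHCB2*, and *PSAK* with Sevir.7G197500. Topological overlap itself rises with shared linked genes, so sharing among pairs with an edge is partly built in. A pair of red photosystem genes had between 366 and 3951 linked genes in common, with a median of 1755.5. Such counts also depend on how many edges each gene has, and no count for other red pairs is given. A missing edge says only that the weight was below the lowest one listed.

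**Figure D3:**
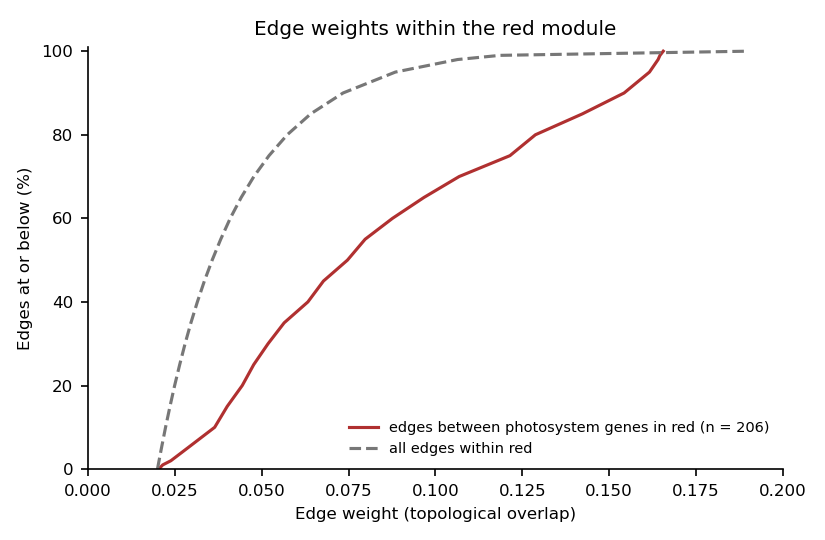
Cumulative share of edges, in percent, at or below each edge weight, for the 206 edges between photosystem genes in red (solid line) and for all edges within red (dashed line). The median is 0.0747 between photosystem genes and 0.0357 within red.

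The heaviest of these edges were among antenna genes, both within and between the complexes. *LHCA2* and *LHCA3* had a weight of 0.166, and *LHCA3* and *LHCB6* had 0.165. *LHCB4* had weights of 0.165 with *LHCA2*, 0.164 with *LHCA3* and 0.164 with *LHCA1*. *LHCA4* and *LHCB5* had 0.164. All 10 pairs among the red LHCA genes were listed, with a median of 0.140 and a range of 0.0257 to 0.166, where the low end belongs to *LHCA5*. All 15 pairs among the red LHCB genes were listed, with a median of 0.0938. Between LHCA and LHCB genes, 29 of 30 pairs were listed, with a median of 0.135. The LHCB median was the lowest of the 3, and in the plot of edges between photosystem genes the light rows of *LHCB4*, *LHCB5*, *LHCB6* and *LHCB2* contrast with the darker rows of *LHCB1* and *LHCB3*.

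*LHCB3*, which sits in the trimers that join the outer antenna to the core, had its heaviest edge within the set not with an antenna gene but with the PsbW-domain gene Sevir.5G340900 (0.137). That gene, the PsbX-domain gene Sevir.9G412500, *PSBX* and *PSAK* formed a further area of heavy edges, in which all 6 pairs had weights of 0.119 to 0.129. *PSAK* had its heaviest edge of all with Sevir.9G412500 (0.127), and Sevir.9G412500 had its own with Sevir.5G340900 (0.129). *PSBX* and *LHCB3* had 0.135. For only 3 of the 44 genes was the heaviest partner in the whole network another photosystem gene: *PSAK*, Sevir.9G412500 and *LHCB6*. The others had a heavier edge to a gene outside the set, as described below for the genes around it.

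**Figure D4:**
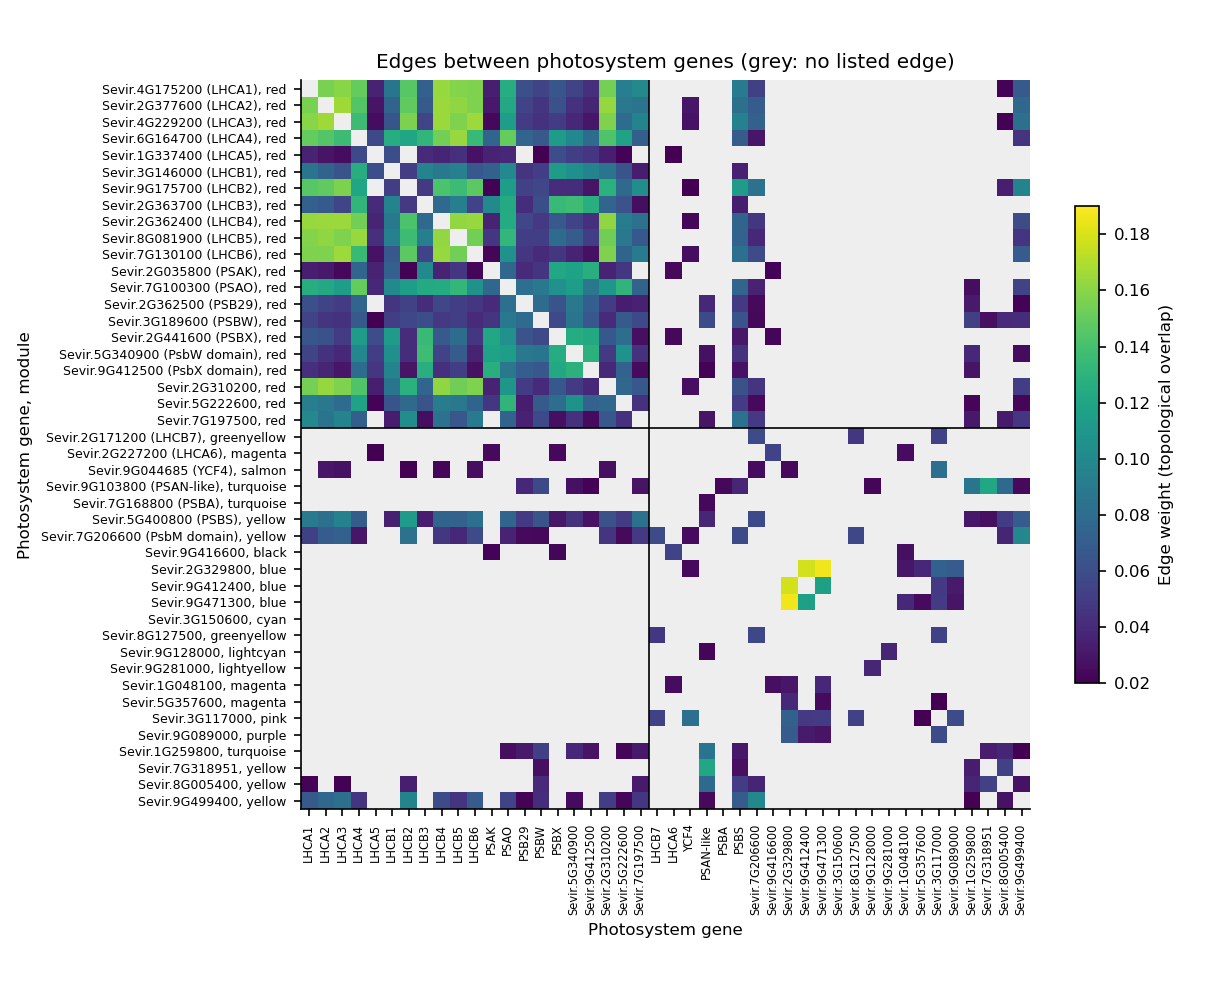
Weights of the edges between the 44 photosystem genes, red ones first (above and left of the black lines), with lighter colours for heavier edges on a scale of 0.02 to 0.19 and grey where no edge is listed. The red block is filled in 206 of 210 pairs, the rows of the yellow genes *PSBS*, Sevir.7G206600 and Sevir.9G499400 reach into it, and the trio in blue has the heaviest edges outside it.

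Over all 44 genes, 329 of 946 pairs had an edge (34.8%), against a share of 13.6% of all gene pairs and 16.9% that the listed shares between modules alone would give for the same modules. Pairs of 1 red and 1 other photosystem gene were listed in 77 of 483 cases (15.9%, by modules 8.38%). Pairs outside red were listed in 46 of 253 cases (18.2%, by modules 14.1%). The excess over the module shares was therefore mostly within red. Those shares take no account of how many edges each gene has. A chain of edges joined 43 of the 44 genes. No such count was made for other gene sets, so it is not read as a trait of photosystem genes. Sevir.3G150600 in cyan, which has the photosystem II and chlorophyll-binding terms and no Arabidopsis hit, had no edge to any other.

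*PSBW* had the most edges within the set, 27, of which 20 were to red genes. *LHCA3* and *PSBS* followed with 25 each. The largest set in which every pair was listed had 20 genes, which were 19 red genes and the yellow *PSBS* (Sevir.5G400800), and it left out *LHCA5* and *PSAK*. *PSBS*, the sensor of lumen acidity for nonphotochemical quenching, thus had edges to 19 of the 21 red photosystem genes. It reached 57.7% of all red genes, although its module is yellow, where its connectivity was above 70.0% of genes. Its heaviest edge within the set was with *LHCB2* (0.113). The PsbM-domain gene Sevir.7G206600, also in yellow, had 20 edges within the set, 14 of them to red genes. Sevir.9G499400 in yellow had 20 as well, 15 of them to red genes, and its Arabidopsis hit, AT2G03420, is not in the table of photosystem loci.

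The other genes outside red with a photosystem hit had fewer edges to red photosystem genes. The PSAN-like gene Sevir.9G103800 in turquoise had the most edges of all 44 genes, 8189, yet 12 within the set, 5 of them to red genes. *LHCB7* (Sevir.2G171200) in greenyellow, a rare LHCB protein in Arabidopsis, had 3 edges within the set and none to a red photosystem gene. *LHCA6* had 5, of which 3 were to red genes, and among them was *LHCA5* at a weight of 0.0201, close to the lowest listed. *YCF4* (Sevir.9G044685), an assembly factor of photosystem I that is encoded in the plastid in Arabidopsis, was in salmon at rank 650 of 780 and had 9 edges within the set, 6 of them to red genes. *PSBA* (Sevir.7G168800), a locus on chromosome 7 whose Arabidopsis hit is the plastid gene for D1, was in turquoise at rank 3799 of 3909. By position it was the lowest of the 44 genes, with the limit given below for plastid hits. Its only edge within the set was with the PSAN-like gene, at 0.0235.

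The 16 genes outside red with neither a photosystem hit nor a domain had a median of 4 edges within the set and reached a median of 2.78% of red genes. The heaviest edges of the whole set were nevertheless among them. Sevir.2G329800 in blue, at rank 36 of 2668, had 0.187 with Sevir.9G471300 and 0.179 with Sevir.9G412400, also in blue. Its Arabidopsis hit is a chaperone of the mitochondrial ubiquinol-cytochrome c reductase, and none of the trio had an edge to a red photosystem gene. Within their module, however, 63.0% of all pairs are listed and 10% of edges weigh more than 0.115. The best-connected photosystem genes of the remaining modules with 3 or more were Sevir.7G318951 in yellow (above 71.9% of genes), the PSAN-like gene in turquoise (76.4%) and Sevir.5G357600 in magenta (41.7%), whose Arabidopsis hit is a glycosyltransferase. Sevir.1G259800 and Sevir.8G127500 had Arabidopsis hits in the ELMO family. Sevir.1G259800, in turquoise, had 7 edges to red photosystem genes and reached 30.8% of red. Sevir.3G117000 in pink and Sevir.9G128000 in lightcyan were in the top 25% of their modules (90.1% and 75.3%) and had no edge to a red photosystem gene, while Sevir.8G005400 in yellow (67.7%) had 5. The lowest positions, beside *PSBA*, *YCF4* and *LHCA6*, were those of Sevir.9G281000 (13.1%), Sevir.9G416600 (13.7%), Sevir.3G150600 (15.9%), Sevir.1G048100 (16.5%) and Sevir.9G089000 (34.8%).

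Genes without either GO term, for further photosystem proteins and for the cytochrome b6f complex, lay around the red photosystem genes. A list of 22 Arabidopsis loci was written after part of these values had been seen. It covers nuclear-encoded subunits and associated proteins of the photosystems and the cytochrome b6f complex. The list matched 16 network genes outside the set, and all 16 were red. Their connectivity was above 55.7 to 99.9% of red genes, with a median of 97.0%, and 13 had edges to all 21 red photosystem genes. The oxygen-evolving complex genes *PSBO* (Sevir.5G172700), *PSBP* (Sevir.4G216200) and *PSBQ* (Sevir.2G353200), which stabilise the manganese cluster that splits water, ranked 1, 4 and 5 of red. *PSAD* (Sevir.9G044600), at the ferredoxin docking site of photosystem I, ranked 8. *PETM* (Sevir.9G076900), a small cytochrome b6f subunit, ranked 9, and *PSAH* (Sevir.3G151700) of photosystem I ranked 12. The lowest was *PSB27* (Sevir.9G418400), a photosystem II repair protein, at rank 749 with edges to 12 of the red photosystem genes.

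Genes that matched the plastid genome of Arabidopsis mostly had other modules. Of 34 network genes with such a best hit, *PSBA* and *YCF4* included, 1 was red, and the 34 were spread over 11 modules with a median position of 38.3%. They had a link to a red photosystem gene more often than network genes in general. No such link was listed for 10 of the 34 (29.4%), compared with 65.5% of all network genes outside the set, and Sevir.4G142402 in yellow had edges to 19 red photosystem genes. On chromosome 9, all 16 loci from Sevir.9G044615 to Sevir.9G044690, a run with *YCF4* in it, had plastid hits and fell in 8 modules, none of them red, whereas *PSAD*, which precedes the run in locus order, was red. The libraries were made from poly(A)+ RNA, and reads of plastid transcripts and of nuclear copies of plastid DNA cannot be told apart in these tables. The positions of *PSBA* and *YCF4* are uncertain to that extent. How far near-identical members of the LHC families shared reads was not tested.

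The GO terms for the reaction centers share no network gene with the set, and they differed from each other in their modules. Of 8 genes with the photosystem I reaction center term, 5 were red (62.5%), which are *PSAD*, *PSAE* (Sevir.2G123300), *PSAF* (Sevir.9G068500), *PSAH* and *PSAL* (Sevir.3G307400). Of 9 genes with the photosystem II reaction center term, 1 was red and 5 were yellow. The red gene was *PSB28* (Sevir.5G452900). Of the 8 photosystem II genes outside red, 4 had plastid hits in Arabidopsis, among them the yellow Sevir.4G142402 and Sevir.9G049100, and 4 had no hit. The whole photosystem II group had edges in 46.6% of its pairs with the red photosystem genes, and its 8 genes outside red in 69 of 168 pairs (41.1%). For the photosystem I group the share was 62.5%, and its 3 genes outside red had no such edge in 63 pairs. Of these 3, Sevir.6G242900 had a plastid hit. The others, Sevir.2G327700 and Sevir.3G307300, had the hits AT3G15351 and AT3G02800, which are not in the list of nuclear-encoded proteins above. The contrast between the terms need therefore not be one between the complexes. These terms were added after the first values had been seen.

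Most other groups of photosynthesis genes, with photosystem genes left out, had a larger share in red than the network. Red held 11 of 30 oxygen evolving complex genes (36.7%) and 60 of 173 photosystem II assembly genes (34.7%). For the steps beyond the photosystems, it held 8 of 22 genes of the reductive pentose-phosphate cycle (36.4%), 2 of 6 of the cytochrome b6f complex and 5 of 16 of the NDH complex (31.2%). For pigments, it held 50 of 150 genes of chlorophyll biosynthesis (33.3%), 34 of 137 of carotenoid biosynthesis (24.8%) and 13 of 121 of chlorophyll catabolism (10.7%). The response to red light had 29 of 126 (23.0%), and the response to high light had 15 of 255 (5.88%). Pigment synthesis and red light response thus stood above the network share of red, while high light response did not. Genes can have several of these terms. For example, the red Sevir.3G255600 has those for photosystem II assembly, chlorophyll and carotenoid biosynthesis and red light response. The shares of the groups are therefore not independent of each other. The 4 genes with the general light harvesting term that are not photosystem genes were all outside red, whereas all 16 network genes with the term for light harvesting in photosystem I belonged to the set and 14 of them were red.

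Groups unlike the photosystems gave a scale for these values. Of 143 genes of the cytosolic large ribosomal subunit, 7.69% were red and 39.8% of their mutual pairs were listed, and of 98 nucleosome genes, 3.06% were red and 18.2% of pairs were listed. The 34.8% of the whole photosystem set was therefore below that of the ribosomal genes. The 62.3% of the 22 genes with a photosystem hit was above it, but the ribosomal genes were not narrowed in a like way. Listed ribosomal pairs were also heavier, with a median weight of 0.0932. The median was 0.0586 for the whole photosystem set and 0.0679 for the 22 genes. With the red photosystem genes, 20.1% of ribosomal pairs and 10.3% of nucleosome pairs had an edge, beside 43.7% for the reductive pentose-phosphate cycle and 37.4% for chlorophyll biosynthesis.

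**Figure D5:**
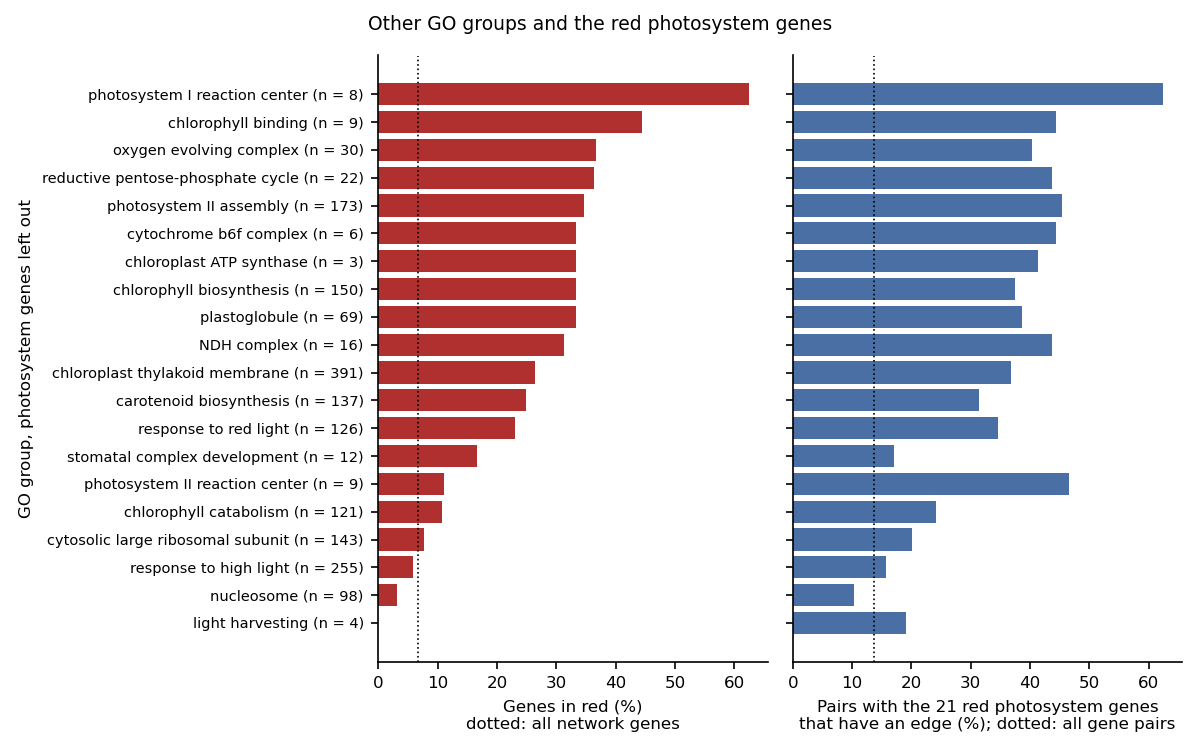
Other GO groups, photosystem genes left out, with the number of network genes in brackets. Left, percent of the group in red, with the network share of 6.68% dotted; right, percent of pairs with the 21 red photosystem genes that have an edge, with 13.6% of all gene pairs dotted. Among the groups drawn, which have at least 3 such genes, the photosystem I reaction center group is highest in both panels (62.5%), and the nucleosome group is below both dotted lines.

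Edges of the red photosystem genes were spread unevenly over the modules. Of all their edges, 37.8% went to red, 20.1% to yellow, 18.2% to turquoise and 8.02% to salmon. Relative to module size, they reached 74.1% of red, 34.0% of salmon, 33.2% of yellow and 27.6% of darkgreen pairs, where all red genes together reached 40.0%, 14.2%, 17.4% and 10.0%. Towards turquoise, the largest module, they reached 15.5%, close to the 14.1% of all red genes. Towards blue they reached 0.127%, where all red genes reached 0.438%. The shares towards yellow and salmon were thus higher, and that towards blue lower, than for red as a whole. The red photosystem genes also had more edges in all (median 3413, beside 1680 per red gene). These shares were not adjusted for that.

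Outside the set, 280 genes had edges to all 21 red photosystem genes, of which 277 were red. Among the 280, 41 had the chloroplast thylakoid membrane term (14.6%), beside 1.55% of all network genes outside the set. Edges to 29 photosystem genes were listed for 2 outside genes and edges to 28 for 31 genes. Of the 31, the 4 with the largest summed weight to the set are named. All 6 had many edges in general, from 5845 to 8233, beside a median of 3069 per network gene. A high count here need not be particular to photosystem genes. These 6 genes included 3 with Arabidopsis hits of known function in red, namely Sevir.8G003100 (29 genes; CIPK3, a kinase of calcium signaling), Sevir.2G192900 (28 genes; an isochorismate synthase) and Sevir.1G314700 (28 genes; CURT1A, which bends thylakoid membranes). Sevir.4G301700 (29 genes) and Sevir.7G317600 (28 genes), both red, had no Arabidopsis hit. The remaining gene of the 6, Sevir.7G291400 (28 genes), had the H protein of glycine decarboxylase, an enzyme of photorespiration, as its Arabidopsis hit. It was labelled blue, where it ranked 2663 of 2668, although it had edges to all 21 red photosystem genes. Sevir.4G118700, a red gene at rank 3 with thylakoid membrane and electron transport terms and no Arabidopsis hit, was the heaviest partner of 5 photosystem genes, which were *LHCA1*, *LHCA2*, *LHCB4*, *LHCB5* and *PSAO*.

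The MADS-box genes of the study listed here had no edge to a red photosystem gene. *SvFul2* (Sevir.2G006400) in brown had no edge to any of the 44 genes, *SvFul1* had 1 (2.27%) and *SvFul3* had 2 (4.55%), all below the 13.6% of all gene pairs. *SvFul4* in magenta had 7 (15.9%), with a highest weight of 0.0971. *SvMads51*, a further MADS-box gene in magenta, had 8 (18.2%), among them *LHCA6*. The shares of *SvFul4* and *SvMads51* were near that of all gene pairs, and all their edges to the set were to photosystem genes outside red. How many edges each MADS-box gene has over the whole network is not given here, so no share is read as high or low for its gene.

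Within 10 loci of each other on a chromosome there were 2 pairs of photosystem genes. The share over all gene pairs was not computed, so the count is not read as high or low. *LHCB4* and *PSB29*, adjacent on chromosome 2, had a weight of 0.0563. Sevir.9G412400 and the PsbX-domain gene Sevir.9G412500, adjacent on chromosome 9, had no edge and were in blue and red.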

How the data were processed

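RNA-seq of *ful2* and wild-type inflorescence primordia (24 RNA samples) was processed by the authors. Per the labels and the submitters' processing notes, reads were trimmed with cutadapt and quantified with Salmon 0.13.0, and the paper's methods describe variance stabilization and a signed WGCNA network of wild-type samples. The authors deposited edge weights as a score (topological overlap), listing only pairs at 0.02 or more. A gene whose edges are mostly weaker than that has its connectivity understated, and it can be missing from the nodes. Modules were assigned, and GO terms generated with GOMAP, by the authors. The deposited node list, used here as the network, holds fewer genes and modules than the network the paper describes. Depth per sample was not used.

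Genes were joined by locus, and 678 assignments marked NOT were dropped, none of them to the photosystem terms. Edges, sums of weights and ranks were computed with Python 3.11.15, numpy 2.4.6 and networkx 3.6.1, and the code was tested on simulated data. Members and lists were chosen with earlier results of these data known. The Arabidopsis role table, the domain class, the nuclear and plastid lists and 4 added GO groups were set after values were seen. Named photosystem genes are the 8 highest and 8 lowest by position in their module, the 8 with most mutual edges, the 8 heaviest mutual edges, genes with none, the best-connected gene of each module with at least 3, the extremes of each role and any gene the paper names, and outside the set the 6 genes with edges to most photosystem genes, ties ordered by summed weight. Further genes were named after their values were seen. Alternatives were each GO term alone, reciprocal best hits, genes with a role, heavier edges and other measures of connectivity. Protein and promoter sequences were not analysed here.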

Additional observations from a re-analysis of the deposited data

How the results depend on the processing

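Of 32 alternative settings, 16 left the result about where it was and 16 moved it. A share was called moved when it lay outside the 95% interval of the main share, and a count when it differed by more than 1.5-fold. The interval treats genes or gene pairs as independent, which they are not. It is also narrower for the 946 pairs than for the 44 genes. The split is therefore only a label of size and no measure of robustness. The share of annotated genes in the network (91.7%) was 100% for genes with a reciprocal best hit as evidence, which are only 2. The share in red (47.7%) became 72.7% for genes with a photosystem role, 72.0% with a role or domain and 15.8% with neither. The last pair of alternatives was chosen after seeing the data, and the table of roles behind all of them was also written after values had been seen. The share in the 3 leading modules (65.9%, the last place a tie of magenta, turquoise and blue, with magenta taken) was 50.0% for reciprocal best hits and 81.8% with a role. The share of mutual pairs with an edge (34.8%) was 43.0% for the photosystem II term alone, 0% for the 1 pair of reciprocal best hits, 62.3% with a role, 65.0% with a role or domain and 18.7% with neither. By construction, heavier edges lowered it, to 25.1% at 2 times the lowest weight and to 7.29% in the top 10% of weights, where the largest connected set had 18 genes instead of 43. At these limits, 6 and 21 genes had no mutual edge, instead of 1. For the other shifts the cause was not tested beyond the choice of genes. The share in the top 25% of a module (56.8%) was between 42.1% and 68.2% in every alternative run.

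No paired analysis was possible because single samples have no columns in the tables. Alternatives that need protein sequences were not run. The depth of the listing is the limit of these values, since weights below 0.02 are not listed, and neither weights nor modules have a replicate error.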
